A study of Mus musculus with 12 samples.

Results

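The insulin-like growth factor (IGF) axis was followed through 10 genes in C2C12 cells, a mouse myoblast line that fuses into myotubes when serum is withdrawn. They are the ligands Igf1 and Igf2, the imprinted non-coding RNA H19 that neighbours Igf2, the receptors Igf1r and Igf2r, and the binding proteins Igfbp2, Igfbp3, Igfbp4, Igfbp5 and Igfbp6. The genes were picked by name from the 78275 gene IDs of the deposited table, and each name matched 1 ID. Of the 10 genes, 9 were among the 15030 IDs with counts high enough to be tested, and Igfbp3 was not.

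The 12 libraries of poly(A)-selected RNA fall into 4 groups of 3. In the first group, cells transfected with an siRNA against Zfp143, the mouse gene of the transcription factor ZNF143, were moved 24 hours later to medium with 1% horse serum and kept there for 5 days of myogenic induction. The second group received a non-targeting control siRNA and the same induction. The third group carried the Zfp143 siRNA and the fourth the control siRNA, and both were harvested uninduced 24 hours after transfection, in medium with 10% fetal bovine serum. The labels call the Zfp143 siRNA samples ZNF143 knockdown and the control samples wild type, and put all 12 in 1 batch. All 4 groups are the same line and all were transfected with a lipid reagent; induced and uninduced cells differ in serum, in induction and in time since transfection, which cannot be told apart. Whether the 3 libraries of a group are separate cultures is not stated, and the p-values below therefore describe only how far these libraries scatter, which may be technical.

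IGF-I and IGF-II are secreted peptides that act through the receptor tyrosine kinase encoded by Igf1r, which signals through the insulin receptor substrates to PI3K, AKT and mTOR. The product of Igf2r, the cation-independent mannose 6-phosphate receptor, binds IGF-II and carries it to lysosomes without signalling as a kinase. The IGF binding proteins hold the ligands outside the cell and can limit or prolong their action. In muscle cultures IGF-II made by the cells themselves is known to promote differentiation, and IGFBP-5 is the binding protein best known from C2C12 differentiation. Igf2 and H19 lie side by side, are expressed from opposite parental alleles and share enhancers, with an insulator bound by CTCF between them.

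Total estimated counts per library lay between 13.5 and 19.1 M. Zfp143 averaged 11.4 ± 1.10 CPM with its siRNA and 30.3 ± 8.58 CPM with control siRNA in uninduced cells (SD, n = 3 each; log2 fold change -1.41 ± 0.18 SE, edgeR adjusted p = 6.12e-05), where CPM is the count scaled to the TMM-adjusted library total. In induced cells it averaged 17.1 ± 2.50 CPM with its siRNA and 19.4 ± 0.221 CPM with control siRNA, a difference of -0.18 on the log2 scale that was not called (edgeR adjusted p = 0.646). A pair of libraries stood apart. Control uninduced replicate 3 had 6.02% of its counts on mitochondrially encoded genes, against 2.63% and 2.90% in the other libraries of its group, and induced Zfp143 siRNA replicate 1 had the lowest total, 13.5 M. Of 7 skeletal muscle markers, all averaged at least 1 CPM in the induced groups and 4 did in the uninduced groups. In uninduced cells Des was at 372 CPM with Zfp143 siRNA and 304 CPM with control siRNA. Myf5 went the other way there, at 16.9 and 56.8 CPM with those siRNAs. So did Myog (1.78 and 3.24 CPM) and Myod1 (6.53 and 6.92 CPM). Mef2c, Ckm and Acta1 averaged below 1 CPM there. All 7 markers summed to 2323 to 3101 CPM with Zfp143 siRNA and 5608 to 7058 CPM with control siRNA in induced cells. In uninduced cells they summed to 366 to 432 CPM and 343 to 387 CPM with those siRNAs, mostly Des. Fibroblast markers were also higher after induction, at 876 to 1049 CPM after and 95.1 to 104 CPM before it with Zfp143 siRNA, and at 1364 to 1523 CPM after and 61.7 to 71.9 CPM before it with control siRNA; 4 of the 5 averaged at least 1 CPM in the induced groups and 3 in the uninduced groups, with Thy1 at 0 in all groups but one. Endothelial markers summed to at most 5.32 CPM, hepatocyte markers to at most 1.77 CPM and adipocyte markers to at most 0.734 CPM in any library.

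Some sequences help to follow the results. H19 is the host transcript of miR-675, so the hairpin that lies in it (chr7:142577064-142577147, minus strand, RefSeq on GRCm38.p6) is shown first, with the mature arms in capitals. The mature arms follow, with the seed, bases 2 to 8, in capitals; the arms have different seeds.
miR-675 hairpin: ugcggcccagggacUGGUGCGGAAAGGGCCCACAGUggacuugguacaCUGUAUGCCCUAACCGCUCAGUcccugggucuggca
miR-675-5p: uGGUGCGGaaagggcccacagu
miR-675-3p: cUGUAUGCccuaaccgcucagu

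The promoter windows of Igf1 and Igfbp5 are shown because these genes had the largest called siRNA differences among the 10, Igf1 in induced and Igfbp5 in uninduced cells. Each window runs from 250 bases before to 50 bases after the start of the gene in RefSeq on GRCm38.p6, and lies at chr10:87860861-87861160 on the plus strand for Igf1 and at chr1:72874816-72875115 on the minus strand for Igfbp5. Capitals mark the letters CANNTG, the E-box bound by the MyoD family and by many other factors.
Igf1 window: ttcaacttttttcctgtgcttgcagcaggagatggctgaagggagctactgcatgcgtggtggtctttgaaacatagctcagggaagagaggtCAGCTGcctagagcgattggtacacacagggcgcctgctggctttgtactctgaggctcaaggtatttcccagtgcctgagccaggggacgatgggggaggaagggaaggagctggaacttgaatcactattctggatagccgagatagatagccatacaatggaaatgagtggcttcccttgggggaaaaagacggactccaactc
Igfbp5 window: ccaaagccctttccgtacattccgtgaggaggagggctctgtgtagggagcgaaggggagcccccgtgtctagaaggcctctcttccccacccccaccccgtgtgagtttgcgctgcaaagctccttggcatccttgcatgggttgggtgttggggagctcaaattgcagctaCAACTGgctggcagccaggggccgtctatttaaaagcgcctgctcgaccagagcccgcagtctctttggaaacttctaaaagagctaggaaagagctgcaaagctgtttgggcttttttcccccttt

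Windows were at hand for 9 of the 10 genes, 13 windows in all, since Igf2 has 4 and Igfbp2 has 2. The E-box letters begin at position -157 in the Igf1 window and at -77 in the Igfbp5 window, counted from the start of the gene; 72.3% of all 32851 windows in the table hold CANNTG on one strand or the other. ACTACAA, the first letters of a motif known for ZNF143, is in 3.24% of all windows on either strand and in none of the 13. TATAAA is in 13.6% of all windows and in those of Igfbp4 and Igfbp6. A match is only a run of letters, and its absence says only that the run is not in the window.

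Induction was accompanied by the largest movements, in both ligands and in H19. Igf1 had no count in any uninduced library and averaged 7.07 ± 0.990 CPM with Zfp143 siRNA and 24.7 ± 4.07 CPM with control siRNA after 5 days (SD, n = 3 each). Igf2 was 58.9-fold higher after induction with Zfp143 siRNA and 107-fold higher with control siRNA; H19 was 18.6-fold and 31.9-fold higher. Igf1r, Igf2r and Igfbp6 were higher after induction by smaller amounts, Igfbp5 was called higher with Zfp143 siRNA, and Igfbp2 was lower with either siRNA. With Zfp143 siRNA, 8 of the 9 tested genes passed an adjusted p of 0.05, 7 higher and 1 lower, where 66.1% of all tested genes passed (36.0% higher and 30.1% lower). With control siRNA, 7 of 9 passed, 6 higher and 1 lower, against 64.1% of all tested genes (33.2% higher and 30.9% lower). Induced and uninduced libraries did not overlap for the same 8 and 7 genes, where 72.1% and 68.2% of all tested genes did not overlap. The balance of higher and lower calls over all genes moved with the scaling. With Zfp143 siRNA 5406 genes were higher and 4526 lower, against 6597 and 3371 with library sizes alone and 4322 and 5810 with a length trend taken out of each library, and the median log2 fold change was 0.10, 0.35 and -0.13 in the 3 scalings. With control siRNA 4992 were higher and 4644 lower, against 5715 and 3652 with library sizes alone and 3847 and 6701 with the length trend taken out, with medians of 0.03, 0.21 and -0.30. Most tested genes were called with induction, and the counts alone do not set the axis apart.

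The siRNA itself was called for fewer of them, and partly for other genes in each state of the cells. In induced cells 4 of the 9 were called, Igfbp2 higher and Igf1, Igf2r and Igfbp4 lower with Zfp143 siRNA, against a background of 9.49% (3.73% higher and 5.77% lower). Over all genes that is 560 higher and 867 lower, against 681 and 631 with library sizes alone and 814 and 840 with the length trend taken out. In uninduced cells 6 were called (Igf1 has no counts there), H19 and Igfbp2 higher and Igf1r, Igf2r, Igfbp4 and Igfbp5 lower with Zfp143 siRNA; the background is 32.5% of tested genes (15.4% higher and 17.1% lower). The libraries of the compared groups did not overlap for the same 4 genes in induced and 6 genes in uninduced cells, where 29.0% and 43.8% of all tested genes did not overlap. For these single genes an exact permutation test of 3 against 3 libraries cannot go below a two-sided p of 0.1. Induction comparisons share libraries with the siRNA comparisons, so their values are given side by side below and not set against each other.

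**Figure D1:**
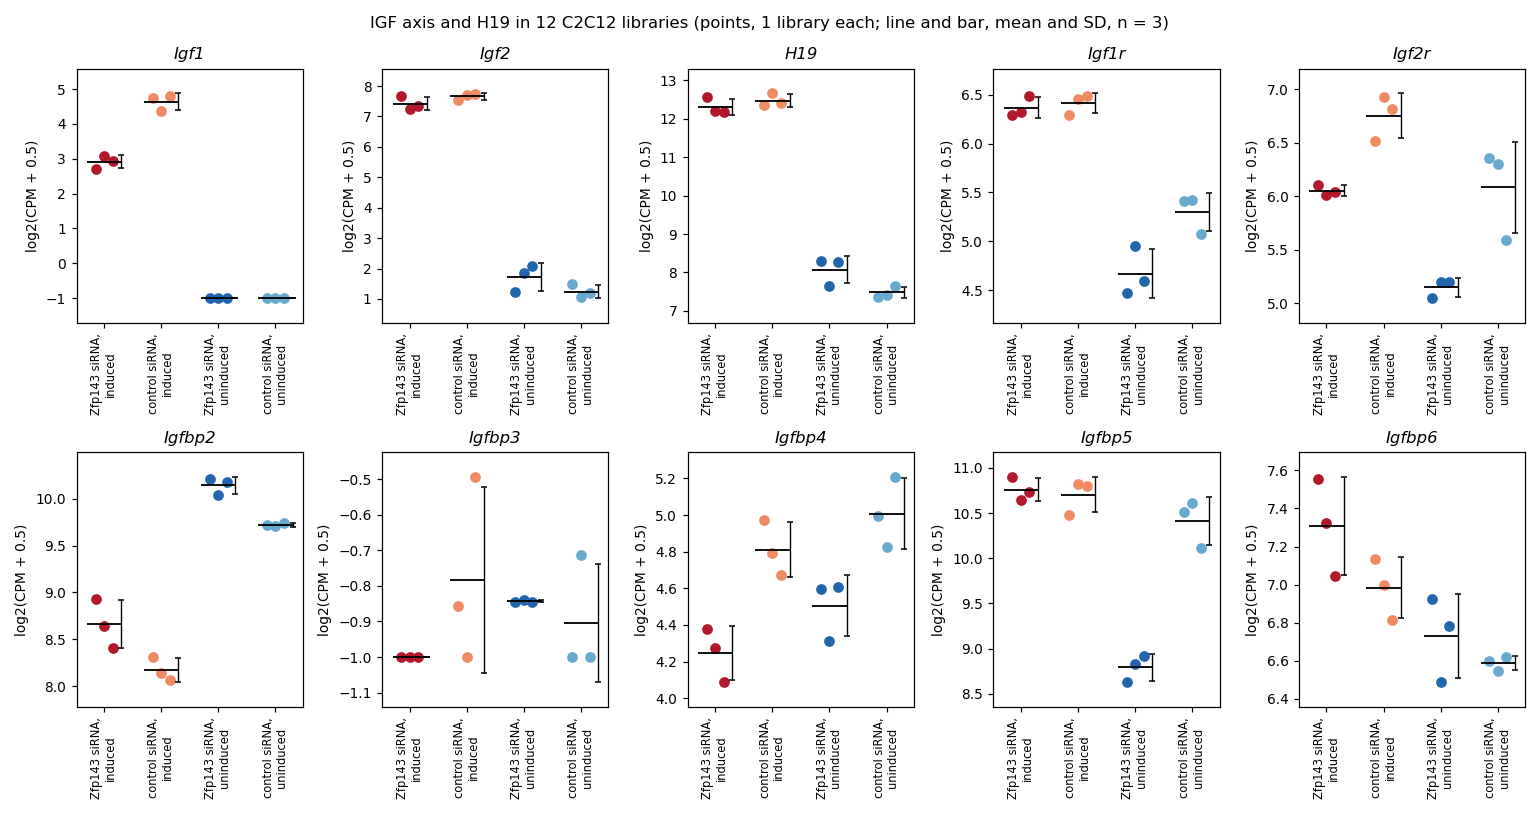
Level of each gene in each library, as log2 of CPM plus a pseudocount of 0.5, for Zfp143 siRNA and control siRNA in induced and then in uninduced cells; points are libraries, lines are means and bars are SDs (n = 3). Igf1 lies at the floor in all 6 uninduced libraries, H19 and Igf2 separate induced from uninduced cells, and Igfbp5 is low in the 3 uninduced Zfp143 siRNA libraries.

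Igf1 encodes IGF-I, the ligand with the higher affinity for the signalling receptor. In induced cells its level was 6.04, 8.02 and 7.16 CPM in replicates 1, 2 and 3 with Zfp143 siRNA, against 26.3, 20.0 and 27.6 CPM with control siRNA. Every Zfp143 siRNA library was below every control library. The level with Zfp143 siRNA was 28.8% of that with control siRNA (log2 fold change -1.80 ± 0.19 SE, 95% interval -2.22 to -1.38, edgeR adjusted p = 1.16e-04). The log2 fold change stayed between -1.93 and -1.69 over 22 alternatives and passed the threshold in each. Skeletal muscle markers, and with them the fibroblast markers (876 to 1049 CPM with Zfp143 siRNA and 1364 to 1523 CPM with control siRNA, 4 of 5 markers above 1 CPM in both, and Thy1 at 0.0221 CPM with Zfp143 siRNA and 0 with control siRNA), were lower in the same libraries, and their part in this result was not tested. Fewer cells expressing Igf1 and less Igf1 RNA per cell cannot be told apart in these bulk libraries.

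Uninduced libraries held no Igf1 count with either siRNA, so the siRNA comparison and its interaction with induction have no estimate there. Against a floor of 3 counts per uninduced library, Igf1 was at least 41.0-fold higher after induction with Zfp143 siRNA and at least 141-fold higher with control siRNA. Those bounds are limited by depth: 3 counts in an uninduced library are worth about 0.173 CPM with Zfp143 siRNA and 0.175 CPM with control siRNA.

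Igf2 encodes IGF-II, the ligand that differentiating myoblasts are known to make. After induction it had 202, 152 and 162 CPM with Zfp143 siRNA and 184, 210 and 211 CPM with control siRNA; before induction it had 1.83, 3.13 and 3.79 CPM with Zfp143 siRNA and 2.28, 1.59 and 1.77 CPM with control siRNA. The induced and uninduced libraries are far apart, and the siRNA groups overlap in both states. Induction moved Igf2 by 5.88 ± 0.21 SE on the log2 scale with Zfp143 siRNA (edgeR adjusted p = 1.28e-11) and by 6.73 ± 0.23 SE with control siRNA (edgeR adjusted p = 3.54e-12). Reads of Igf2 and of the antisense gene Igf2os, which shares exon sequence with it on the opposite strand, cannot be told apart without strand information. Igf2os summed to 17.1 counts with Zfp143 siRNA and 34.4 with control siRNA over the induced libraries and to 0 in the uninduced ones. Another gene, Gm49394, shares exon sequence with Igf2 on the same strand, where strand information would not separate the reads.

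The siRNA difference in Igf2 was not called in either state. In induced cells it was -0.23 (95% interval -0.59 to 0.13, edgeR adjusted p = 0.512). In uninduced cells it was 0.62 (95% interval 0.08 to 1.17, edgeR adjusted p = 0.0740), where the uninduced groups hold only 152 and 98 counts in all with Zfp143 and control siRNA. That second value passed the threshold in 3 of 22 alternatives, without uninduced Zfp143 siRNA replicate 1 (0.87, adjusted p = 0.0135), with the DESeq2 Wald test (0.66, adjusted p = 0.0309) and with no filter on low counts (0.61, adjusted p = 0.0482), while the adjusted p ranged from 0.0135 to 0.328 over all of them. The interaction, -0.85 ± 0.31 SE, was also not called (edgeR adjusted p = 0.0578), and 8 of 21 alternatives called it.

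H19, an imprinted transcript that is abundant in embryonic muscle and in differentiating myoblasts, was the most abundant of the 10 genes after induction. It had 6006, 4704 and 4603 CPM with Zfp143 siRNA and 5233, 6492 and 5402 CPM with control siRNA in induced cells, groups that overlap. In uninduced cells it had 312, 202 and 311 CPM with Zfp143 siRNA and 166, 171 and 200.5 CPM with control siRNA; the lowest Zfp143 siRNA library is barely above the highest control library. The sums of muscle and of fibroblast markers given above were higher in the same induced libraries as Igf1, Igf2 and H19. Among them Myf5 was lower after induction with control siRNA (23.9 CPM after and 56.8 CPM before). The part of these markers in the induction results was not tested. Induction changed H19 by 4.21 ± 0.19 SE with Zfp143 siRNA (edgeR adjusted p = 2.56e-10) and by 4.99 ± 0.19 SE with control siRNA (edgeR adjusted p = 4.49e-11).

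Between siRNAs, H19 was 0.62 ± 0.19 SE higher in uninduced cells (95% interval 0.22 to 1.02, edgeR adjusted p = 0.02002) and differed by -0.16 in induced cells (95% interval -0.56 to 0.23, edgeR adjusted p = 0.704). The call in uninduced cells was lost without control uninduced replicate 1 (adjusted p = 0.0547) or replicate 2 (0.0637), and without uninduced Zfp143 siRNA replicate 1 (0.0955) or replicate 3 (0.0947), with adjusted p from 0.00189 to 0.0955 over all 22 alternatives. The interaction of siRNA and induction was -0.78 ± 0.26 SE (edgeR adjusted p = 0.0452), near the threshold, and it was lost without any 1 of 9 libraries, that is each one other than control uninduced replicate 3, uninduced Zfp143 siRNA replicate 2 and induced Zfp143 siRNA replicate 1 (adjusted p of 0.0650 to 0.126 in those fits), and also with the length trend taken out (-0.60, adjusted p = 0.0846); the adjusted p ranged from 0.00355 to 0.126 over 21 alternatives. Without the pair of libraries that stand apart, the uninduced siRNA difference was 0.71 and the interaction was -0.999.

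The mature arms of miR-675 printed above could not be followed: the Mir675 gene, which lies inside an H19 exon on the same strand, is listed at 0 in all 12 libraries, as is Mir483, which lies in Igf2, and small RNAs were not what these libraries collect. H19 stood in different proportion to Igf2 before and after induction. On the TPM scale, where a level is divided by transcript length so that genes can be set beside each other within a library, there were 50.6 ± 2.68 H19 transcripts per Igf2 transcript with Zfp143 siRNA and 48.7 ± 3.03 with control siRNA in induced cells (SD, n = 3 each). In uninduced cells the ratio was 178 ± 96.2 with Zfp143 siRNA and 162 ± 36.1 with control siRNA, from few Igf2 counts. All 6 induced libraries had a lower ratio than all 6 uninduced ones, and the siRNA groups overlapped in both states.

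Igf2 was also set against Igf1 as TPM, which only the induced libraries allow. The ratio was 25.7, 27.6 and 35.0 Igf2 transcripts per Igf1 transcript with Zfp143 siRNA and 8.04, 12.8 and 11.9 with control siRNA. The groups do not overlap, and the means were 29.4 ± 4.91 and 10.9 ± 2.54 (SD, n = 3 each). Igf2 was thus the more abundant ligand transcript in each induced library, with either siRNA.

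Igf1r encodes the receptor through which both ligands signal. Induced cells held 77.7, 79.5 and 89.3 CPM with Zfp143 siRNA and 78.1, 87.0 and 89.4 CPM with control siRNA, which overlap. Uninduced cells held 21.6, 30.4 and 23.6 CPM with Zfp143 siRNA and 42.0, 42.3 and 33.2 CPM with control siRNA, which do not. Induction raised it by 1.70 ± 0.14 SE with Zfp143 siRNA (edgeR adjusted p = 1.01e-07) and by 1.11 ± 0.14 SE with control siRNA (edgeR adjusted p = 6.93e-06). The siRNA difference was -0.05 in induced cells (95% interval -0.35 to 0.25, edgeR adjusted p = 0.909) and -0.64 ± 0.14 SE in uninduced cells (edgeR adjusted p = 0.00393).

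Igf2r encodes the receptor that clears IGF-II. Its level in induced cells was 68.3, 63.9 and 65.5 CPM with Zfp143 siRNA and 91.2, 121 and 112 CPM with control siRNA. Its level in uninduced cells was 32.6, 36.4 and 36.3 CPM with Zfp143 siRNA and 81.7, 78.1 and 47.7 CPM with control siRNA. The Zfp143 siRNA libraries are below the control libraries in both states, and the lowest control value is that of uninduced replicate 3, a library that stands apart. The difference was -0.71 ± 0.17 SE in induced cells (edgeR adjusted p = 0.0140) and -0.98 ± 0.17 SE in uninduced cells (edgeR adjusted p = 6.97e-04), and -1.18 in uninduced cells without that library. The call in induced cells was lost without control induced replicate 2 (adjusted p = 0.0824) or replicate 3 (0.0553), without induced Zfp143 siRNA replicate 2 (0.0588) and with library sizes alone as scaling (0.0825), with adjusted p from 5.18e-05 to 0.0825 over 22 alternatives.

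Induction changed Igf2r by 0.91 ± 0.17 SE with Zfp143 siRNA (edgeR adjusted p = 3.21e-04) and by 0.64 ± 0.17 SE with control siRNA (edgeR adjusted p = 0.00410); the second value was 0.43 without control uninduced replicate 3. The interaction was 0.27 and not called (edgeR adjusted p = 0.474), although it passed at 0.47 without that library (adjusted p = 0.0401, over a range of 0.0242 to 0.755 in 21 alternatives). Airn, the non-coding RNA transcribed against Igf2r from within it, was near 1 to 3 CPM (means of 2.38 with Zfp143 siRNA and 2.73 with control siRNA in induced cells, 1.34 and 2.17 in uninduced cells).

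Igf1r and Igf2r have the longest transcripts of the 10, with mean effective lengths of 11274 and 9078 bases, and in uninduced cells the siRNA difference of all genes moved with length. Over the 2332 tested genes under 1000 bases the median log2 fold change was 0.11, over the 2023 genes of 4000 to 6000 bases it was -0.24, and over the 1171 genes above 6000 bases it was -0.48. In induced cells the medians of all length classes lay between -0.06 and -0.01. After induction with Zfp143 siRNA the median was -0.35 under 1000 bases and 0.65 above 6000 bases, and with control siRNA -0.18 and 0.11. Control uninduced replicate 3 set against replicates 1 and 2 showed the same kind of slope, with a median log2 difference of 0.34 under 1000 bases and -0.36 above 6000 bases.

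When a smooth trend on length was taken out of each library, an alternative chosen after the data were seen, the uninduced siRNA difference of Igf1r was -0.15 and no longer called (adjusted p = 0.229, the highest of 22 alternatives, the lowest being 7.19e-05). That of Igf2r was -0.54 and still called (adjusted p = 0.00419), and that of Igfbp5, the third longest with 6275 bases, was -1.34 and still called (adjusted p = 3.40e-06). The same offset left Igf1r called after induction, at 0.74 with Zfp143 siRNA and 0.55 with control siRNA, but ended both induction calls of Igf2r, at 0.07 (adjusted p = 0.634) and 0.16 (adjusted p = 0.257), each the highest adjusted p among its 22 alternatives. The interaction of Igf1r, 0.59 ± 0.20 SE (edgeR adjusted p = 0.0478), became 0.19 (adjusted p = 0.302, within a range of 0.00193 to 0.302). It was lost as well without any 1 of the same 9 libraries that ended the H19 interaction (adjusted p of 0.0644 to 0.131). Other losses came with RLE scaling (0.0588), with library sizes alone (0.0603) and with no filter on low counts (0.0529). In all, 13 of 21 alternatives ended the call.

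**Figure D2:**
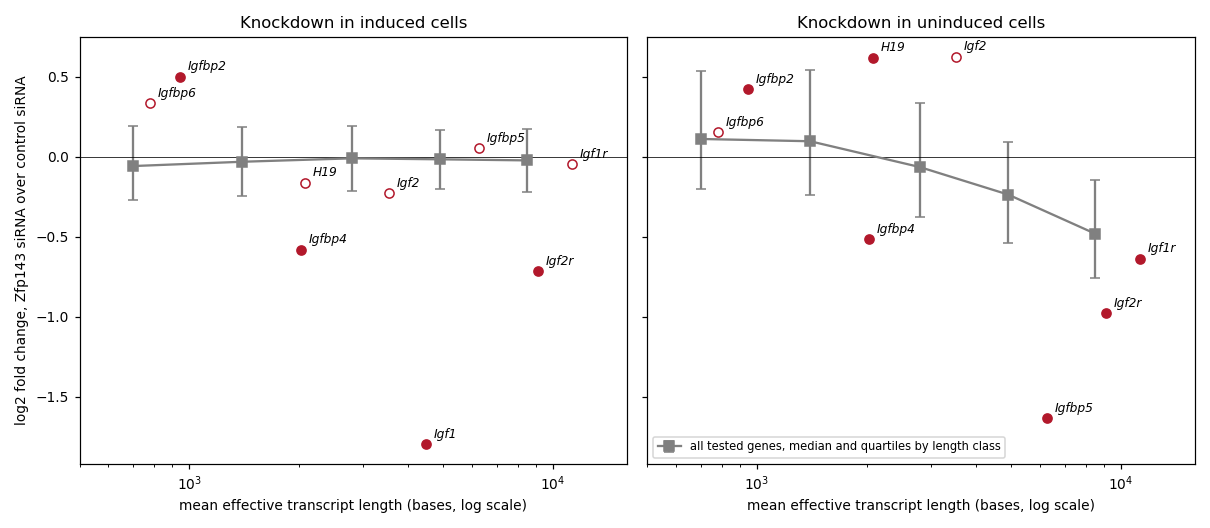
Log2 fold change of Zfp143 siRNA over control siRNA against mean effective transcript length in bases (log scale), in induced cells (left) and uninduced cells (right); circles are the tested genes of the axis, filled where the adjusted p is under 0.05, and grey squares with bars are the median and quartiles of all tested genes in 5 length classes. In induced cells the grey median is flat and Igf1 lies lowest; in uninduced cells it declines to -0.48 above 6000 bases, with Igf1r near it and Igf2r and Igfbp5 below it.

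Set side by side as TPM, the receptors were about equally abundant in induced cells with Zfp143 siRNA, with 0.898, 0.995 and 1.10 Igf1r transcripts per Igf2r transcript, against 0.679, 0.596 and 0.635 with control siRNA. Those groups do not overlap. In uninduced cells the ratio was 0.576 ± 0.0891 with Zfp143 siRNA and 0.476 ± 0.0825 with control siRNA (SD, n = 3 each), which overlap.

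Among the binding proteins, Igfbp5 showed the largest siRNA difference. In uninduced cells it had 396, 454 and 485 CPM with Zfp143 siRNA and 1465, 1564 and 1108 CPM with control siRNA; every Zfp143 siRNA library was below every control library. In induced cells it had 1909, 1598 and 1705 CPM with Zfp143 siRNA and 1432, 1814 and 1783 CPM with control siRNA, and the groups overlap. The level with Zfp143 siRNA was 32.3% of that with control siRNA before induction (log2 fold change -1.63 ± 0.16 SE, edgeR adjusted p = 5.04e-06). After induction the difference was 0.05 (95% interval -0.29 to 0.39, edgeR adjusted p = 0.911).

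Put the other way, Igfbp5 was 3.90-fold higher after induction with Zfp143 siRNA (1.96 ± 0.16 SE, edgeR adjusted p = 8.42e-08), while the change with control siRNA was 0.28 (95% interval -0.06 to 0.62) and not called (edgeR adjusted p = 0.137). With library sizes alone the change with control siRNA was 0.44 and called (edgeR adjusted p = 0.0460). The interaction, the difference between the induction changes with each siRNA, was 1.68 ± 0.23 SE (edgeR adjusted p = 1.14e-04). It stayed between 1.47 and 1.81 and past the threshold in 21 alternatives. The background of the interaction is 22.5% of tested genes (10.6% higher and 11.8% lower; 1595 and 1780 genes, against 2184 and 1607 with the length trend taken out), and 3 of the 9 genes were called in it, Igfbp5 and Igf1r positive and H19 negative. Of these, only Igfbp5 was called in every alternative. The uninduced control group holds the library that stands apart; without it the uninduced siRNA difference was -1.76. Macrophage and leukocyte markers also summed higher in uninduced Zfp143 siRNA libraries. They gave 8.21 to 10.3 CPM against 1.21 to 3.10 CPM with control siRNA. Cd68 and Csf1r were above 1 CPM, Ptprc at 0.153 CPM and Adgre1 and Itgam at 0 with Zfp143 siRNA. Fibroblast markers summed higher there too, at 95.1 to 104 CPM with Zfp143 siRNA and 61.7 to 71.9 CPM with control siRNA. Pdgfra (71.6 and 42.7 CPM) and Col1a1 (14.9 and 9.86 CPM) were higher, and Dcn was lower (12.1 and 14.5 CPM). Lum was at 0.0188 CPM with Zfp143 siRNA and 0 with control siRNA, and Thy1 at 0 with both. The part of either list, or of the muscle markers given above, in the uninduced results was not tested.

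Igfbp2 encodes a secreted binding protein and had the highest mean TPM of the binding proteins in each of the 4 groups. In induced cells it had 486, 399.8 and 340.0 CPM with Zfp143 siRNA and 318, 282 and 267 CPM with control siRNA. In uninduced cells it had 1186, 1054 and 1157 CPM with Zfp143 siRNA and 842, 835 and 859 CPM with control siRNA. It was higher with Zfp143 siRNA in both states, with no overlap between groups. The difference was 0.50 ± 0.14 SE in induced cells (edgeR adjusted p = 0.0356) and 0.42 ± 0.14 SE in uninduced cells (edgeR adjusted p = 0.0322), and induction lowered Igfbp2 to 36.1% of the uninduced level with Zfp143 siRNA (edgeR adjusted p = 4.19e-07) and to 34.2% with control siRNA (edgeR adjusted p = 2.12e-07).

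Both siRNA calls of Igfbp2 are close to the threshold. In induced cells the call was lost without any 1 of 7 libraries: uninduced Zfp143 siRNA replicate 1 (adjusted p = 0.0537) or 3 (0.0582), control induced replicate 1 (0.0534), 2 (0.142) or 3 (0.163), and induced Zfp143 siRNA replicate 1 (0.131) or 2 (0.0896). It was lost as well with the deposited effective lengths as offsets (0.34, adjusted p = 0.103). These lengths of Igfbp2 were 1227 bases in induced Zfp143 siRNA replicate 1, a library that stands apart, and 843 to 980 bases in all others. In uninduced cells the call was lost without control uninduced replicate 1 (0.0594) or 2 (0.0853), without uninduced Zfp143 siRNA replicate 1 (0.109) or 3 (0.0970), with no filter on low counts (0.0617) and with the length trend taken out (0.17, adjusted p = 0.304). The direction was the same in each of the 22 alternatives in both states.

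Igfbp4 encodes a binding protein known to inhibit IGF action until PAPP-A cleaves it. Induced libraries had 20.3, 18.9 and 16.5 CPM with Zfp143 siRNA and 30.9, 27.2 and 24.97 CPM with control siRNA. Uninduced libraries had 23.7, 19.4 and 23.8 CPM with Zfp143 siRNA and 31.4, 27.8 and 36.5 CPM with control siRNA. It was lower with Zfp143 siRNA in both, by 0.58 ± 0.15 SE in induced cells (log2 fold change -0.58, edgeR adjusted p = 0.0189) and by 0.51 ± 0.15 SE in uninduced cells (log2 fold change -0.51, edgeR adjusted p = 0.0142), without overlap. The first call was lost without control induced replicate 1 (0.105) or 2 (0.0625), without induced Zfp143 siRNA replicate 2 (0.0616) or 3 (0.0898) and with effective lengths as offsets (-0.37, adjusted p = 0.217), and the second without uninduced Zfp143 siRNA replicate 2 (0.0647). The effective length of Igfbp4 ran from 1561 to 2792 bases over the libraries.

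Induction gave Igfbp4 no called change, at -0.27 with Zfp143 siRNA (edgeR adjusted p = 0.121) and -0.20 with control siRNA (edgeR adjusted p = 0.234). With effective lengths as offsets the second value was -0.67 and called (adjusted p = 0.00247), and with the length trend taken out both were called, at -0.45 (adjusted p = 0.00673) and -0.58 (adjusted p = 9.28e-04). Mean effective length of Igfbp4 was 2059 bases after and 1903 before induction with Zfp143 siRNA, and 2425 after and 1732 before with control siRNA. The induction change thus depended on how length was treated, and the part of transcript use in it was not tested.

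Igfbp6 encodes a binding protein with a preference for IGF-II. In induced cells it had 188, 160 and 131 CPM with Zfp143 siRNA and 140.3, 127 and 112 CPM with control siRNA. In uninduced cells it had 121, 89.3 and 109 CPM with Zfp143 siRNA and 96.6, 92.9 and 97.8 CPM with control siRNA. The siRNA groups overlap in both states, and no siRNA difference was called (0.33 in induced cells, edgeR adjusted p = 0.209; 0.15 in uninduced cells, edgeR adjusted p = 0.453). Induction raised it by 0.58 ± 0.15 SE with Zfp143 siRNA (edgeR adjusted p = 0.00285) and by 0.40 ± 0.15 SE with control siRNA (edgeR adjusted p = 0.0264). The second call was lost without control uninduced replicate 1 (0.0504) or 2 (0.0761), without control induced replicate 1 (0.115) or 2 (0.0644), and with the length trend taken out (0.16, adjusted p = 0.296).

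Igfbp3, the main carrier in serum, was nearly absent. Summed counts were 0 in the induced Zfp143 siRNA libraries, 5 in the induced control libraries, 3 in the uninduced Zfp143 siRNA libraries and 2 in the uninduced control libraries, too few to test or to rank.

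**Figure D3:**
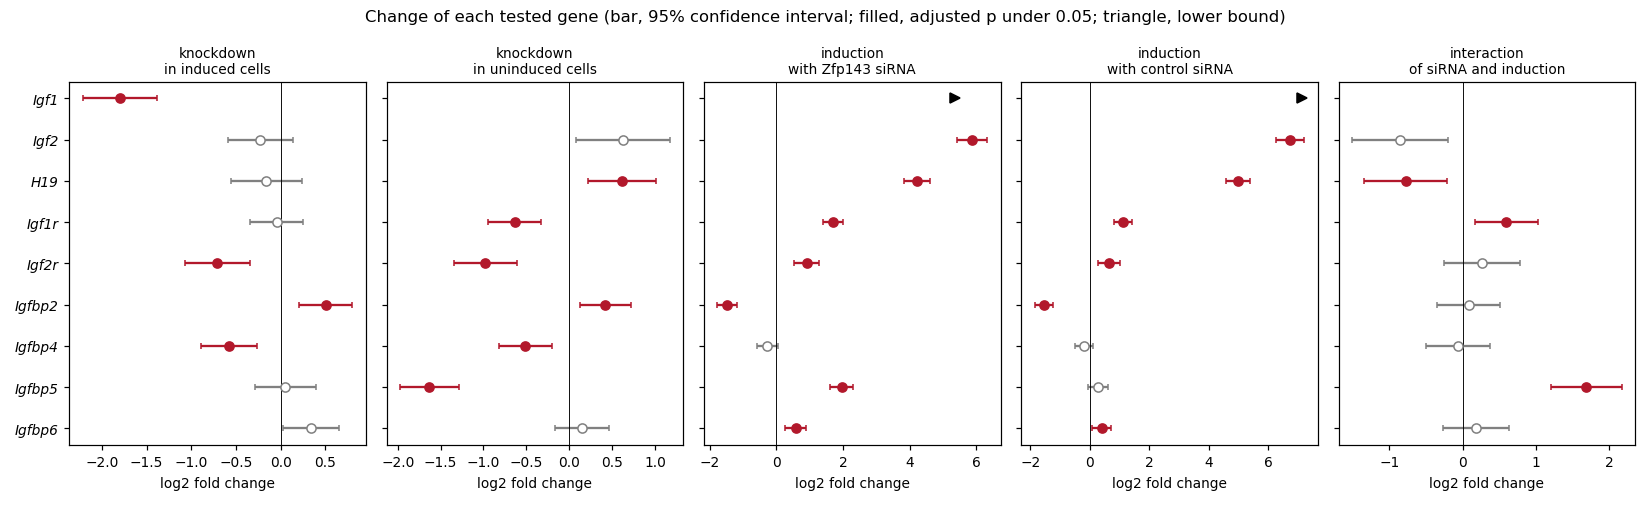
Log2 fold change of each tested gene in the 5 comparisons, with its 95% confidence interval; filled points have an adjusted p under 0.05, and triangles for Igf1 are lower bounds against 3 counts per uninduced library. The largest movements are those of Igf1, Igf2 and H19 after induction, Igf1 is lowest among the siRNA differences in induced cells at -1.80, and Igfbp5 is lowest in uninduced cells at -1.63; Igf1 has no estimate in uninduced cells or in the interaction.

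The binding proteins were also set beside each other as parts of their summed level. The sum was 1610 ± 115 TPM with Zfp143 siRNA and 1296 ± 40.8 TPM with control siRNA in induced cells, and 1752 ± 18.7 TPM with Zfp143 siRNA and 1612 ± 368 TPM with control siRNA in uninduced cells (SD, n = 3 each). The wide spread of the last group comes from replicate 3, with 1188 TPM against 1838 and 1809 TPM in replicates 1 and 2. TPM is not scaled by TMM, and the TMM factor of replicate 3 was 0.799, against 0.991 and 0.983 in replicates 1 and 2. In CPM, Igfbp2 was at 859 in replicate 3 and at 842 and 835 in replicates 1 and 2. Igfbp5 was lower in replicate 3, at 1108 against 1465 and 1564 CPM. In the induced state every Zfp143 siRNA library had a higher sum in TPM than every control library. TMM factors, which TPM leaves out, were 1.11 to 1.12 with Zfp143 siRNA and 1.04 to 1.05 with control siRNA there. The part of this scaling in the sums was not tested.

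Igfbp2 made up 45.7 ± 2.60% of that sum with Zfp143 siRNA and 41.6 ± 2.97% with control siRNA in induced cells, and 84.8 ± 0.487% and 71.3 ± 2.55% in uninduced cells with those siRNAs. For Igfbp5 the share was 31.8 ± 3.91% with Zfp143 siRNA and 35.0 ± 4.76% with control siRNA in induced cells, and 4.84 ± 0.577% with Zfp143 siRNA and 17.5 ± 3.21% with control siRNA in uninduced cells. Uninduced Zfp143 siRNA libraries thus had the highest Igfbp2 shares and the lowest Igfbp5 shares of the 12, without overlap with any other group. Igfbp2 and Igfbp5 differ in mean effective length, 946 and 6275 bases, and the uninduced siRNA difference of all genes moved with length. With the length trend taken out it was 0.17 for Igfbp2 (edgeR adjusted p = 0.304) and -1.34 for Igfbp5 (edgeR adjusted p = 3.40e-06). The part of length in the shares was not tested. Igfbp6 held 21.6 ± 1.36% with Zfp143 siRNA and 21.9 ± 1.66% with control siRNA after induction, and 9.61 ± 0.733% and 9.76 ± 0.550% before it; its siRNA groups overlap.

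**Figure D4:**
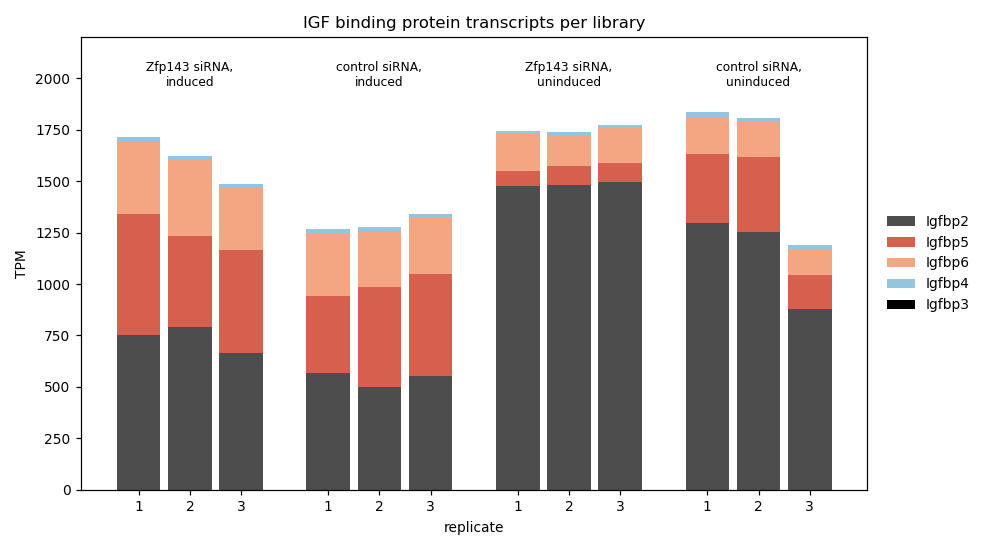
Level of the 5 binding protein genes in TPM, stacked for each of the 12 libraries, with the induced groups at the left. Igfbp2 fills most of each uninduced bar, Igfbp5 is thinnest in the 3 uninduced Zfp143 siRNA libraries, Igfbp3 is too low to be seen, and control uninduced replicate 3 has the lowest sum, 1188 TPM. TPM is scaled to a fixed sum and not by TMM, so bar heights are not on the CPM scale of the tests.

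Ranked by TPM, H19 came first in the induced cells, with 4516 TPM with Zfp143 siRNA and 4685 TPM with control siRNA. Igfbp2, Igfbp5, Igfbp6 and Igf2 followed, each without overlap with the next in its range over libraries. With control siRNA Igfbp2 and Igfbp5 nearly touched, at a lowest value of 497.5 TPM and a highest of 497.1 TPM. Igf2r and Igfbp4 overlapped behind Igf2 with either siRNA, and Igf2r overlapped with Igf1r with Zfp143 siRNA. Igf1 ranked ninth at 3.13 TPM with Zfp143 siRNA and 9.05 TPM with control siRNA. In the uninduced groups Igfbp2 came first, at 1485 TPM with Zfp143 siRNA and 1143 TPM with control siRNA. Igfbp5 came next to it with control siRNA, at 289 TPM and overlapping with Igfbp6, and stood behind Igfbp6 and H19 with Zfp143 siRNA, at 84.8 TPM. The highest receptor value in an uninduced library was 13.1 TPM, for Igf2r, and the highest Igf2 value 1.29 TPM; Igfbp3 and Igf1 came last.

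The counts of the gene lists that follow are to be read against the shares of all tested genes called, 9.49% and 32.5% for the siRNA in induced and in uninduced cells and 66.1% and 64.1% for induction with Zfp143 and with control siRNA. Relatives of the binding proteins were taken from a list of 12 genes, of which 7 were tested. In induced cells 5 were lower and 0 higher with Zfp143 siRNA, with a median log2 fold change of -0.48 against -0.03 over all tested genes. Ccn2, a matricellular protein with a domain like that of the binding proteins, averaged 109 CPM with Zfp143 siRNA and 329.8 CPM with control siRNA (-1.60 ± 0.24 SE, edgeR adjusted p = 5.14e-04). Igfbp7, a secreted low-affinity relative, averaged 229 CPM with Zfp143 siRNA and 377 CPM with control siRNA (-0.72 ± 0.16 SE, edgeR adjusted p = 0.00737), a call that was lost without control induced replicate 1 (-0.53, adjusted p = 0.0526). The count of 5 became 2 without that library or with library sizes alone, and 3 without control induced replicate 2 or 3 or induced Zfp143 siRNA replicate 2.

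In uninduced cells 3 of the 7 relatives were higher and 2 lower with Zfp143 siRNA, with a median of 0.27 against -0.04 over all tested genes. Igfbp7 was among the higher ones, with 171 CPM against 54.9 CPM with control siRNA (1.64 ± 0.16 SE, edgeR adjusted p = 4.18e-06), and Ccn4, another matricellular protein, was among the lower ones, with 75.1 CPM against 139.5 CPM (-0.89 ± 0.13 SE, edgeR adjusted p = 1.53e-04). The interaction of Igfbp7 was -2.35 ± 0.22 SE (edgeR adjusted p = 5.32e-06). After induction 5 were higher and 2 lower with Zfp143 siRNA (median 0.48, against 0.10 over all tested genes), and 4 were higher and 1 lower with control siRNA (median 2.44, against 0.03). Ccn5 had the smallest p in both, with 68.0 CPM after induction against 4.45 CPM before it with Zfp143 siRNA, and 91.2 CPM against 0.998 CPM with control siRNA.

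Proteases that cut the binding proteins, and the stanniocalcins that restrain one of them, gave 5 tested genes of 7 listed. In induced cells 3 were lower and 0 higher with Zfp143 siRNA (median -0.65), a count that became 1 without control induced replicate 1 or with library sizes alone. Stc2, an inhibitor of PAPP-A, averaged 5.66 CPM with Zfp143 siRNA and 11.01 CPM with control siRNA there (-0.97 ± 0.16 SE, edgeR adjusted p = 7.37e-04). In uninduced cells 1 was higher and 2 lower (median 0.45); Stc2 was again among the lower ones, with 39.3 CPM against 59.9 CPM (-0.61 ± 0.14 SE, edgeR adjusted p = 0.00410). Induction was accompanied by 3 higher and 1 lower with Zfp143 siRNA (median 1.59) and by 4 higher and 1 lower with control siRNA (median 2.11). The lower gene was Stc2, at -2.81 with Zfp143 siRNA and -2.44 with control siRNA. Adam12, a metalloprotease that can cleave IGFBP-5, had 25.4 CPM after and 2.66 CPM before induction with Zfp143 siRNA, and 23.7 CPM after and 1.92 CPM before with control siRNA.

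The insulin receptor family and its adaptors gave 11 tested genes of 14. With Zfp143 siRNA 3 were higher and 3 lower in uninduced cells (median 0.08), and 0 higher and 1 lower in induced cells (median -0.07); the count in induced cells was 2 without control uninduced replicate 3. Irs2, a docking protein of the receptor, was higher in uninduced cells, with 70.9 CPM against 33.0 CPM with control siRNA (1.10 ± 0.17 SE, edgeR adjusted p = 2.53e-04). Insr, the insulin receptor, was lower there, with 40.6 CPM against 72.5 CPM (-0.84 ± 0.16 SE, edgeR adjusted p = 0.00103). Over 22 alternatives the Insr difference lay between -0.98 and -0.41 and was called in each. Induction was accompanied by 6 higher and 1 lower with Zfp143 siRNA (median 0.46) and by 7 higher and 0 lower with control siRNA (median 0.48), led by Irs1, which had 168 CPM after and 42.5 CPM before induction with Zfp143 siRNA and 196 CPM after and 40.3 CPM before with control siRNA. In induced cells the lower gene was Grb10, an adaptor that dampens receptor signalling, at 0.437 CPM with Zfp143 siRNA and 1.91 CPM with control siRNA (-2.11 ± 0.44 SE, edgeR adjusted p = 0.00441).

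Further down, the relay of PI3K, AKT and mTOR had all 27 listed genes tested. In uninduced cells 2 were higher and 7 lower with Zfp143 siRNA (median -0.11, against -0.04 over all tested genes). That total, 9 of 27, is close to the background of 32.5%, and became 5 without uninduced Zfp143 siRNA replicate 1 and 14 without the pair that stands apart. Over all tested genes the median there fell with length, to -0.48 above 6000 bases. The list was not set against genes of like length. In induced cells 0 were higher and 1 lower (median -0.15), a total that became 2 without induced Zfp143 siRNA replicate 1 and 4 without that pair. Pik3r1, a regulatory subunit of PI3K, averaged 61.2 CPM with Zfp143 siRNA and 158 CPM with control siRNA in uninduced cells (-1.37 ± 0.14 SE, edgeR adjusted p = 9.45e-06). Induction was accompanied by 13 higher and 6 lower with Zfp143 siRNA (median 0.28) and by 11 higher and 3 lower with control siRNA (median 0.21), where all tested genes had medians of 0.10 and 0.03. These totals, 19 and 14 of 27, are near or below the backgrounds of 66.1% and 64.1%, and the total of 19 with Zfp143 siRNA became 12 without uninduced Zfp143 siRNA replicate 3. Eif4ebp1, a translation repressor that mTOR phosphorylates, had 38.9 CPM after and 179 CPM before induction with Zfp143 siRNA (-2.20 ± 0.14 SE, edgeR adjusted p = 6.39e-09), and 45.7 CPM after and 224 CPM before with control siRNA (-2.29 ± 0.14 SE, edgeR adjusted p = 3.29e-09).

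Around Igf2 and H19, and among proteins known to bind their RNA or the insulator, 10 of 18 listed genes were tested. In uninduced cells 1 was higher and 2 lower with Zfp143 siRNA (median -0.07), and in induced cells 0 were higher and 2 lower (median -0.23). The total in induced cells became 1 without control induced replicate 2 or induced Zfp143 siRNA replicate 3, and 4 without control uninduced replicate 3. After induction 4 were higher and 2 lower with Zfp143 siRNA (median 0.04; 10 in all without control uninduced replicate 3), and 4 were higher and 5 lower with control siRNA (median -0.11). Tnnt3, the fast troponin T gene that lies beyond H19, had 179 CPM with Zfp143 siRNA and 701 CPM with control siRNA in induced cells (-1.97 ± 0.16 SE, edgeR adjusted p = 2.85e-06). Lsp1, its neighbour, which encodes an actin-binding protein, averaged 57.7 CPM with Zfp143 siRNA and 32.8 CPM with control siRNA in uninduced cells (0.81 ± 0.12 SE, edgeR adjusted p = 1.48e-04). Ctcf, the insulator protein, averaged 68.7 CPM with Zfp143 siRNA and 97.7 CPM with control siRNA in uninduced cells (-0.51 ± 0.12 SE, edgeR adjusted p = 0.00501).

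Nctc1, a non-coding RNA near the shared enhancers, had no count in uninduced libraries and summed to 6 counts with Zfp143 siRNA and 43 with control siRNA in induced ones. Ins2, on the far side of Igf2, summed to 22 counts with Zfp143 siRNA and 16 with control siRNA there. Igf2bp3, an RNA-binding protein named for Igf2 RNA, averaged 1.02 CPM with Zfp143 siRNA and 3.24 CPM with control siRNA in uninduced cells (-1.67 ± 0.34 SE, edgeR adjusted p = 0.00170) and was below 0.1 CPM in induced cells.

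In the interaction of siRNA and induction 22.5% of all tested genes were called, 10.6% positive and 11.8% negative. Of the 7 tested relatives of the binding proteins 0 were called positive and 4 negative, with a median of -0.74 against 0.02 over all tested genes. Among the 5 proteases and stanniocalcins 0 were positive and 1 negative, Prss23, and the count became 2 without uninduced or induced Zfp143 siRNA replicate 1. Receptors and adaptors gave 1 positive and 2 negative of 11, the PI3K relay 2 and 2 of 27, and the genes around Igf2 and H19 1 and 2 of 10. The totals of these lists and of the proteases are near or below the background of 22.5%. The total of 4 in the relay became 1 without uninduced Zfp143 siRNA replicate 1 or 3 or control induced replicate 1 or 3, 2 without control uninduced replicate 1 or 2, uninduced Zfp143 siRNA replicate 2, control induced replicate 2 or induced Zfp143 siRNA replicate 3, and 9 without the pair that stands apart.

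The genes whose levels ran most alike were found by Pearson's r of log2 CPM over the 12 libraries, among 10770 genes with at least 5 CPM in a group. The libraries fall into 4 groups, so r mostly follows the group means and is a description only. Nuak1, Trim34a and Ifi44 were nearest to Igf2 (r = 0.996 for each), Lrrc15, St3gal5 and Olfml2b to H19 (r = 0.998, 0.998 and 0.997), and Trim30a, Myh1 and Ifi44l to Igf1 (r = 0.999, 0.998 and 0.998). Between 806 and 985 genes passed r = 0.95 with each of these. Igfbp5 had a less common pattern, with 86 genes past r = 0.95, and Synrg, Exoc8 and Itsn1 were nearest (r = 0.992, 0.988 and 0.985); Synrg had 40.7 and 43.7 CPM with Zfp143 and control siRNA in induced cells and 12.98 and 32.7 CPM in uninduced cells.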

How the data were processed

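Poly(A)-selected, non-stranded libraries of 12 C2C12 samples were read from 1 deposited table. Per the submitters' processing notes, the authors trimmed reads with fastp 1.0.1, mapped them with STAR 2.7.11b to GRCm39 and used Salmon, whose version and annotation the sources used here leave out. For the tests the deposited estimated counts were rounded. The deposited score columns are the authors' TPM values, which are scaled to a fixed sum and not by TMM. They were used to set genes beside each other within a library. The binding protein sums and the ranges of the ranking also compare TPM between libraries and carry that limit. The deposited length columns, in bases, entered the alternatives; 12 FPKM columns were not used. Column names of induced Zfp143 siRNA replicates 2 and 3 have a pair of letters transposed and were matched on the rest.

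After 535 repeated lines were dropped from 78810, edgeR 4.0.16 (R 4.3.3) kept 15030 gene IDs (filterByExpr, minimum count 10, total 15). One robust quasi-likelihood model with a mean per group was fitted to the 12 libraries (TMM scaling, 8 residual degrees of freedom) and gave 5 comparisons: siRNA in uninduced and in induced cells, induction with each siRNA, and the interaction. Benjamini-Hochberg adjustment ran over all tested genes, and called means an adjusted p under 0.05. SEs come from the posterior quasi-likelihood variance. Values are mean ± SD of CPM. Alternatives were a replicate block, other scalings (RLE, library size), DESeq2 1.42.0, limma-voom 3.58.1, no filter, length offsets, fewer groups in the fit and libraries left out. The scripts were tested on simulated data. Depth was 13.5 to 19.1 M estimated counts a library, and intervals or floors from counts (3 per library) cover counting error only.

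The 10 genes, the 5 pathway lists and the marker lists were chosen with earlier results of these data known. Tested pathway genes were named from the called genes of smallest p in a list and comparison, with at least 1 CPM, up to 3 each. Not all of these are named. RefSeq sequences are on GRCm38.p6, another build than the files'; they were matched by gene name.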

Additional observations from a re-analysis of the deposited data

Results flagged for a closer look

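The results below stand here because the effect of the Zfp143 siRNA differed between induced and uninduced cells by the interaction test of edgeR (adjusted p under 0.05); each value is the log2 fold change of Zfp143 over control siRNA in induced cells minus that in uninduced cells. Igfbp5 had 1.68 and Zfp143 itself 1.22. The interaction was -0.78 for H19 and 0.59 for Igf1r. The H19 call was lost without control uninduced replicate 1 or 2, uninduced Zfp143 siRNA replicate 1 or 3, control induced replicate 1, 2 or 3, or induced Zfp143 siRNA replicate 2 or 3, with adjusted p between 0.0650 and 0.126 in those fits. For Igf1r the same 9 libraries ended the call, with adjusted p between 0.0644 and 0.131. Over all 21 alternatives, 13 ended the Igf1r call and 11 the H19 call.

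Among relatives of the binding proteins the value was -3.35 for Ccn2, -2.55 for Ccn5 and -2.35 for Igfbp7, and it was -2.16 for the protease Prss23. Among receptor adaptors it was -4.47 for Grb10, which averaged at most 1.91 CPM in any group, -1.11 for Irs2 and 0.61 for Gab1. In the relay of PI3K, AKT and mTOR it was 1.36 for Pik3r1, 0.63 for Mtor and -0.62 for Foxo3. Near Igf2 and H19 it was -2.74 for Tnnt3, -1.24 for Lsp1 and 0.70 for Ctcf. The calls of Gab1, Mtor and Foxo3 did not hold in all fits with 1 library left out. Gab1 lost it without any 1 of 7 libraries (adjusted p 0.0551 to 0.0774), Mtor of 7 (0.0538 to 0.0883) and Foxo3 of 9 (0.0606 to 0.107). Mtor lost it as well with the length trend taken out (0.32, adjusted p = 0.131). Foxo3 lost it with library sizes alone (adjusted p = 0.161). With no filter on low counts Gab1 (0.0633) and Foxo3 (0.0510) lost it too.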

How the results depend on the processing

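Over all tested genes, 3375 genes were called in the interaction and 5755 without both libraries that stand apart (control uninduced replicate 3 and induced Zfp143 siRNA replicate 1); with 1 library left out at a time the count was 2506 to 4750. In induced cells the siRNA count was 1427, and 2525 without both libraries (901 to 2014 with 1 left out). It was 3492 to 5780 in uninduced cells, 9147 to 10779 for induction with Zfp143 siRNA and 8917 to 10176 for induction with control siRNA with 1 left out. Of the 9 tested genes of the axis, 3 were called in the interaction, 5 without both libraries and 1 to 4 with 1 left out; in induced cells 4 were called for the siRNA, 2 with effective lengths as offsets and 1 to 4 with 1 left out. The counts were 4 to 6 in uninduced cells, 8 to 8 for induction with Zfp143 siRNA and 6 to 7 with control siRNA with 1 left out. The mean H19 per Igf2 ratio of the uninduced Zfp143 siRNA libraries was 178, and 123 to 213 with 1 left out, the lowest without replicate 1.

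Differences that were not called changed sign in some settings, and the cause was not tested. With the length trend taken out, Igf1r in induced cells was 0.039, Igfbp6 in uninduced cells -0.11, Igfbp5 after induction with control siRNA -0.13, and the interaction -0.088 for Igf2r and 0.13 for Igfbp4. With effective lengths as offsets the interaction was -0.14 for Igfbp2, 0.28 for Igfbp4 and -0.026 for Igfbp6. With library sizes alone Igf1r in induced cells was 0.047. Without both libraries the interaction of Igfbp2 was -0.073 and the siRNA difference of Igfbp5 in induced cells -0.0199. Leaving out 1 library gave a range of -0.061 to 0.199 for the interaction of Igfbp2, -0.176 to 0.028 for that of Igfbp4 and -0.048 to 0.112 for Igfbp5 in induced cells. The length trend offset and an H19 per Igf2 ratio from counts were chosen after seeing the data.

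Whether a shared replicate number marks paired libraries is not stated. Residuals of libraries with the same number correlated at -0.0963 to 0.306 over 18 pairs. For libraries with different numbers the range was -0.279 to 0.249 over 36 pairs. Both ends were higher for the same number, but the ranges overlap. With 3 libraries a group they cannot decide on pairing. With the replicate number as a block 1501, 5115, 10079, 9750 and 3564 genes were called for the siRNA in induced and in uninduced cells, for induction with Zfp143 and with control siRNA, and in the interaction, and of the axis only the interaction of H19 changed its call (-0.78, adjusted p = 0.0518, over a range of 0.00355 to 0.126 in 21 alternatives). Depth limits Igf1 and Igf2 before induction and Igfbp3 throughout, each with few counts or none.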
